A study of Homo sapiens with 18 samples.

Results

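The EGR, IER and KLF immediate early genes are 10 genes taken by name from the 26249 genes listed for every library: EGR1, EGR2, EGR3, IER2, IER3, IER5, KLF2, KLF4, KLF6 and KLF10. All 10 were found, and 7 passed the filter for testing, a group mean of 1 FPKM or more in any of the groups; EGR2, EGR3 and KLF4 did not. FPKM is by name an abundance scaled to transcript length and library total, but the libraries here did not share a total, as given at the end. The study treated cultures of 2 human lines, XG1 and AMO1, both labelled multiple myeloma, a cancer of plasma cells, for 6 h with DMSO as the vehicle, with 100 nM or with 1000 nM YKL-5-124, a covalent inhibitor of the kinase CDK7. The 6 groups are therefore XG1 with DMSO, XG1 with 100 nM, XG1 with 1000 nM, AMO1 with DMSO, AMO1 with 100 nM and AMO1 with 1000 nM YKL-5-124, with 3 libraries each and 18 in all. No genotype or transgene is given for any group, all cells grew in RPMI medium with serum, and the series title calls the lines resistant without naming to what. The labels do not say that the 3 libraries of a group came from separate cultures, so the p-values rest on differences among libraries that could be technical repeats.

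Immediate early genes are transcribed within minutes of a signal without new protein synthesis, and their short-lived transcripts follow the rate of transcription closely. Growth factor signals reach many of them through the ERK kinase cascade and the serum response factor SRF, which binds CArG boxes with ternary complex partners. EGR1, EGR2 and EGR3 encode zinc finger transcription factors, and IER2, IER3 and IER5 encode proteins named for the manner of their induction. The KLF genes encode Krüppel-like zinc finger factors that bind GC-rich promoters. CDK7 is the kinase of the general transcription factor TFIIH, phosphorylates RNA polymerase II soon after initiation, and also activates the cell cycle kinases.

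The promoters of 4 members are shown: those of EGR1, IER2 and KLF2, whose changes are described below, and that of EGR2, a relative of EGR1 whose window also held a CArG box. Windows of 300 bases, from 250 before to 50 after an annotated start, were read from RefSeq's table for GRCh38.p14, which is not the hg19 build of the deposited values. A chromosome was left out when the members' windows were read, but not in the shares over all windows given below. Among the windows read, 7 of the 10 members had a window, and EGR3, IER3 and KLF10 had none. The windows are chr5:138465229-138465528 (+ strand) for EGR1, chr10:62816317-62816616 (- strand) for the third of the 3 EGR2 starts, chr19:13150161-13150460 (+ strand) for IER2 and chr19:16324576-16324875 (+ strand) for KLF2. Each is written 5′ to 3′ on the gene's strand, and capitals mark CArG boxes, MEF2 boxes and the CREB core motif TGACG, on either strand.
EGR1: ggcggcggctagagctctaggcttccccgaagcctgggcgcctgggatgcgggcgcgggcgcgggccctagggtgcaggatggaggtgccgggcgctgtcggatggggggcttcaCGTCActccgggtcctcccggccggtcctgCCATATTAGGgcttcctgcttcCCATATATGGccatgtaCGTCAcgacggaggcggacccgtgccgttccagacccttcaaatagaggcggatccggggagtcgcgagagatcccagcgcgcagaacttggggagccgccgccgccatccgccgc
EGR2: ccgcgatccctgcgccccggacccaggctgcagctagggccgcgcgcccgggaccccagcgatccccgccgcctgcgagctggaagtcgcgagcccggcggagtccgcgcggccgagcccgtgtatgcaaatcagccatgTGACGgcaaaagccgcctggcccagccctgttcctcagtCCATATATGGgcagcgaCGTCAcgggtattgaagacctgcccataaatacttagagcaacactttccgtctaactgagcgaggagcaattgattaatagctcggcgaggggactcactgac
IER2: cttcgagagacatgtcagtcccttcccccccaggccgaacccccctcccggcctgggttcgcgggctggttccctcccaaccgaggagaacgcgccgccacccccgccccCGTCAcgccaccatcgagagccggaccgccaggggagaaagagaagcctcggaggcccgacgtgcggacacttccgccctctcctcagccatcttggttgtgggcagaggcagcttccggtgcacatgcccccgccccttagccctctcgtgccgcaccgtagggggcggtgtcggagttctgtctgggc
KLF2: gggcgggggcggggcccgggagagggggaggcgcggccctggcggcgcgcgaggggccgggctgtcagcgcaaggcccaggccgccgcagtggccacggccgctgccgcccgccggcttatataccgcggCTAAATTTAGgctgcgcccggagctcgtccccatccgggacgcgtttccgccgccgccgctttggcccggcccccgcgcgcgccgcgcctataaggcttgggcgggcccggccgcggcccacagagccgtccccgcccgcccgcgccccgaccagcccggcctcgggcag

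The EGR1 window held 2 CArG boxes, 105 and 83 bases before the start, with TGACG matches 135 and 66 bases before it. The EGR2 window shown held 1 CArG box 71 bases before the start, between TGACG matches 110 and 54 bases before it, whereas the windows of the other two EGR2 starts held 0 CArG boxes and 0 TGACG matches. The KLF2 window held 1 MEF2 box, the binding site of the MEF2 factors that ERK5 signalling acts on, 120 bases before the start, and 6 matches to the GC box GGGCGG. The IER2 window held 1 TGACG match 140 bases before the start and 4 GGGCGG matches. The IER5 and KLF6 windows held none of CArG box, MEF2 box or TGACG, KLF4 held 2 TGACG matches, and none of the windows read for these 7 members held TATAAA. Over all 35116 windows of this length in the table, searched on both strands, 1.29% held a CArG box, 2.99% a MEF2 box, 24.6% TGACG, 45.0% GGGCGG and 11.5% TATAAA. Overlapping GGGCGG matches were counted separately, the marked CArG, MEF2 and TGACG matches do not overlap each other in the 4 windows shown, and a match is a description of letters and not a measured binding site.

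The depth of the libraries is unknown, since the files hold no counts. Each library listed 9284 to 10571 genes at 1 FPKM or more. Its commonest rounded value, here called its floor, lay between 0.0745 and 0.1333 FPKM, and single values can lie just below it. The libraries labelled XG1 went against their label. Of 11 measured plasma cell markers, 6 were under 1 FPKM in all 9 of them (IRF4, PRDM1, CD38, SLAMF7, POU2AF1 and CD27) and XBP1 alone was at 10 FPKM or more in all, with a summed level of 44.5 to 76.0 FPKM, whereas AMO1 libraries had 9 of 11 at that level and sums of 4809 to 7249. Of 13 erythroid markers, 9 reached 10 FPKM throughout the libraries labelled XG1 (sums 3558 to 4275), among them GATA1 and the globins HBG1, HBG2, HBA1 and HBA2; in AMO1, 6 were under 1 FPKM in all libraries and only HBE1 was at that level (sums 68.7 to 128.8). With DMSO, HBE1 (mean 49.1 FPKM in XG1, 89.8 in AMO1) and EPOR (1.49 and 2.06) went the other way, higher in AMO1. Summed T cell markers, of 4 measured, were 0.649 to 2.06 FPKM in the libraries labelled XG1 and 1.55 to 3.58 in AMO1, with CD2 under 1 FPKM in all 18; summed myeloid markers, of 5, were 19.5 to 37.6 with ITGAM leading, and 0.533 to 1.54. The line named XG1 below therefore means the libraries labelled so, and no statement about XG1 myeloma cells is made from them. CDK7 mRNA, the transcript of the inhibitor's target, changed at 1000 nM against DMSO by -0.79 ± 0.20 (log2, SE; limma adjusted p = 0.00945) in XG1 and by -0.63 ± 0.20 (adjusted p = 0.0335) in AMO1. These calls were lost in 2 and 9 of 14 alternative settings (adjusted p up to 0.067 and 0.247), and the mRNA level is no check of an inhibitor of the protein.

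One library touches many of the values below. AMO1 DMSO replicate 3 was the lowest of its group for 5 of the 7 tested members and the highest for the other two, KLF2 and KLF10. Its median absolute log2 distance from the other libraries of its group was 0.67 over the members and 0.32 over all tested genes, where the members' medians of the remaining 17 libraries lay between 0.03 and 0.33. AMO1 changes that rest on it are therefore also given without it.

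**Figure D1:**
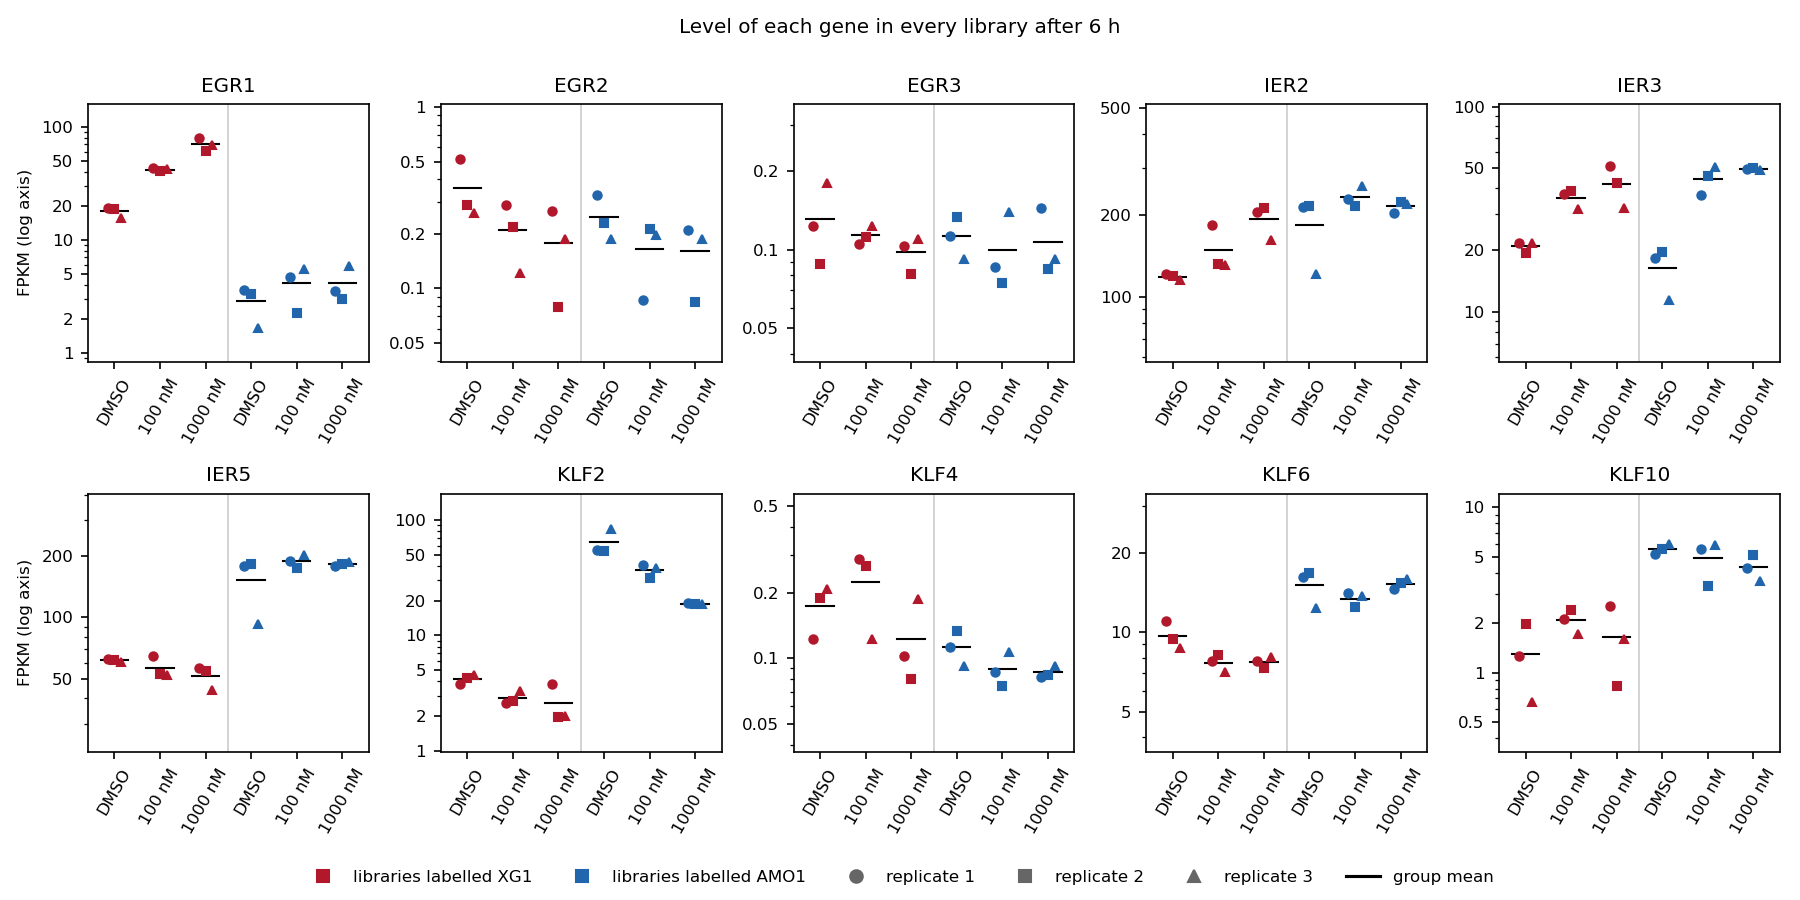
Level of the 10 genes in every library, in FPKM on log axes that differ in range between panels; points are libraries, with the shape giving the replicate number, and bars are group means of 3. In the libraries labelled XG1 EGR1 is higher at each dose than with DMSO, in AMO1 KLF2 is lower, IER3 is higher with inhibitor in both, and EGR2, EGR3 and KLF4 lie near the libraries' floors.

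EGR1 transcripts rose at both doses in the libraries labelled XG1, IER3 transcripts rose in both lines, and KLF2 transcripts fell in AMO1. EGR1 encodes the founding member of the early growth response family, induced in most cells by serum and growth factors. In XG1 with DMSO its level was 19.3, 18.95 and 15.5 FPKM, with 100 nM it was 43.0, 40.6 and 42.1, and with 1000 nM it was 79.9, 60.9 and 69.8. The 3 groups do not overlap, and every library with 1000 nM is higher than every library with 100 nM. The means were 17.9 ± 2.06, 41.9 ± 1.21 and 70.2 ± 9.49 FPKM (SD, n = 3), so that EGR1 was 2.34-fold higher at 100 nM and 3.92-fold higher at 1000 nM. On the log2(FPKM + 1) scale, which understates changes of low genes, the change was 1.19 ± 0.25 (SE) at 100 nM (limma adjusted p = 0.00633) and 1.91 ± 0.25 at 1000 nM (limma adjusted p = 3.8e-05). Both calls held under all 14 alternative settings, with highest adjusted p values of 0.0332 and 0.000988. At 1000 nM it ranked 48 of 12204 tested genes from the highest change. The step from 100 nM to 1000 nM was 0.72 ± 0.25 and did not pass (limma adjusted p = 0.175), although the groups do not overlap. In these bulk libraries, here and below, a change of RNA per cell and a change in the share of cells of one kind cannot be told apart.

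In AMO1, EGR1 was low at every dose. Its level with DMSO was 3.61, 3.32 and 1.67 FPKM, with 100 nM 4.73, 2.23 and 5.50, and with 1000 nM 3.54, 3.03 and 5.83. The 3 groups overlap. The change was 0.39 ± 0.25 at 100 nM (limma adjusted p = 0.495) and 0.41 ± 0.25 at 1000 nM (adjusted p = 0.290), and these became 0.15 (adjusted p = 0.808) and 0.16 (adjusted p = 0.696) without AMO1 DMSO replicate 3. Shifting each library by its median deviation from the gene means gave 0.63 at 1000 nM (adjusted p = 0.0316), a setting chosen after seeing the data. Of the 14 alternatives, this and median centring (0.70, adjusted p = 0.0188) were the ones under which EGR1 was called in AMO1.

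EGR2 and EGR3 encode the relatives of EGR1 that are best known from nerve myelination and lymphocyte activation. EGR2 ranged from 0.0790 to 0.520 FPKM over the 18 libraries and EGR3 from 0.0746 to 0.181. KLF4, a factor known for its role in epithelial differentiation and in reprogramming to pluripotency, ranged from 0.0743 to 0.285 FPKM. These values lie near the floors, so the 3 genes were not tested in the filtered fit; fitted without a filter, none was called in any of the 9 comparisons (smallest adjusted p 0.265). An exon of EGR3 overlaps AC055854.1 on the opposite strand, and since no source used here gives the strand of counting, reads of such pairs cannot be told apart.

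IER2 encodes a small nuclear protein induced by growth factors. Its level in XG1 with DMSO was 121.3, 119.5 and 115.6 FPKM, with 100 nM 184.1, 132.3 and 131.1, and with 1000 nM 205.7, 212.3 and 162.7. Replicate 1 of the 100 nM group stands above the other two, and neither treated group overlaps with DMSO. The change was 0.31 ± 0.19 at 100 nM (limma adjusted p = 0.383) and 0.69 ± 0.19 at 1000 nM (adjusted p = 0.0153). The call at 1000 nM was lost without 1000 nM replicate 1 (adjusted p = 0.0525) or replicate 2 (adjusted p = 0.0763). In AMO1 the level was 214.4, 216.1 and 122.1 FPKM with DMSO, 229.6, 216.2 and 257.8 with 100 nM, and 204.5, 225.1 and 220.9 with 1000 nM. Only AMO1 DMSO replicate 3 stands apart from these 9 values, and the changes of 0.39 (adjusted p = 0.332) and 0.28 (adjusted p = 0.347) were 0.12 and 0.01 without it. An exon of IER2 overlaps AC011446.2 on the opposite strand, with the limit given for EGR3.

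IER3 encodes a stress-induced regulator of cell survival that is a known target of NF-κB and p53. In XG1 its level was 21.6, 19.3 and 21.7 FPKM with DMSO, 37.4, 38.7 and 31.5 with 100 nM, and 51.5, 42.5 and 32.2 with 1000 nM. Every treated library is higher than every DMSO library. The change was 0.75 ± 0.19 at 100 nM (limma adjusted p = 0.0204) and 0.95 ± 0.19 at 1000 nM (adjusted p = 0.0019). The call at 100 nM was lost in 5 of 14 alternatives: without the filter (adjusted p = 0.0515), without DMSO replicate 1 (0.0534) or 2 (0.0857), and without 100 nM replicate 1 (0.0712) or 2 (0.0698). The call at 1000 nM held under all 14.

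In AMO1, IER3 was 18.2, 19.5 and 11.4 FPKM with DMSO, 37.2, 45.7 and 50.7 with 100 nM, and 49.6, 50.4 and 48.98 with 1000 nM. The treated libraries are again all higher than the DMSO libraries, and the 1000 nM libraries lie within a narrow range (49.7 ± 0.731, SD, n = 3). IER3 was 2.72-fold higher at 100 nM and 3.03-fold higher at 1000 nM, and 2.36-fold and 2.63-fold higher without AMO1 DMSO replicate 3. The change was 1.41 ± 0.19 (limma adjusted p = 0.000362) and 1.58 ± 0.19 (adjusted p = 2.04e-05), and 1.19 (adjusted p = 0.000607) and 1.35 (adjusted p = 4.05e-05) without that replicate. At 1000 nM it ranked 53 of 12204 from the highest change. The call at 100 nM was lost when the fit held only the libraries compared (adjusted p = 0.0899). An exon of IER3 overlaps IER3-AS1 on the opposite strand, with the limit given for EGR3.

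IER5 encodes a protein known to take part in the heat shock factor response. In XG1 its level was 62.7, 61.7 and 60.4 FPKM with DMSO, 64.7, 52.5 and 52.1 with 100 nM, and 56.3, 54.4 and 43.9 with 1000 nM. The changes were -0.13 ± 0.19 (limma adjusted p = 0.792) and -0.26 ± 0.19 (adjusted p = 0.389), and the 1000 nM group does not overlap with DMSO. In AMO1 its level was 179.8, 183.9 and 93.3 FPKM with DMSO, 190.3, 175.4 and 202.2 with 100 nM, and 178.9, 183.9 and 186.7 with 1000 nM. Apart from AMO1 DMSO replicate 3, these libraries lie close together. The changes of 0.37 (adjusted p = 0.369) and 0.33 (adjusted p = 0.269) were 0.06 and 0.01 without that replicate, and after median deviation centring IER5 was called at 1000 nM (0.55, adjusted p = 0.0385).

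KLF2 encodes a factor that keeps lymphocytes quiescent and controls their S1PR1-dependent trafficking, and in endothelium responds to flow through ERK5 and MEF2. In AMO1 its level was 54.7, 54.3 and 83.9 FPKM with DMSO, 40.6, 31.2 and 37.96 with 100 nM, and 19.0, 18.6 and 18.6 with 1000 nM. The 3 groups do not overlap, and the 1000 nM libraries lie close together. The means of 64.3 ± 16.96, 36.6 ± 4.87 and 18.7 ± 0.273 FPKM (SD, n = 3) give 0.569 and 0.291 of the DMSO mean, or 0.671 and 0.344 without AMO1 DMSO replicate 3, the highest of its group. The change at 1000 nM was -1.70 ± 0.20 (limma adjusted p = 1.41e-05), held under all 14 alternatives (range -1.80 to -1.40) and ranked 84 of 12204 from the lowest change. The change at 100 nM was -0.78 ± 0.20 (adjusted p = 0.0421), but this call was lost under 12 of 14 alternatives, including every left-out library (highest adjusted p = 0.195). The step from 100 to 1000 nM was -0.92 ± 0.20 and missed the threshold (adjusted p = 0.0601).

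In XG1, KLF2 was far lower than in AMO1. Its level was 3.81, 4.23 and 4.50 FPKM with DMSO, 2.58, 2.71 and 3.29 with 100 nM, and 3.77, 1.97 and 1.99 with 1000 nM. Replicate 1 of the 1000 nM group is the nearest to the DMSO libraries, though below them all. The change was -0.43 ± 0.20 at 100 nM (limma adjusted p = 0.220) and -0.57 ± 0.20 at 1000 nM (adjusted p = 0.0497). The latter call was lost under 12 of 14 alternatives, with an adjusted p of up to 0.347, so it is given as a value only.

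KLF6 and KLF10 did not pass in any comparison with DMSO. KLF6 encodes a widely expressed factor that has been described as a tumour suppressor candidate. In XG1 it was 11.04, 9.39 and 8.68 FPKM with DMSO, 7.78, 8.16 and 7.05 with 100 nM, and 7.75, 7.33 and 8.08 with 1000 nM, with no overlap between DMSO and treated libraries (changes -0.30, limma adjusted p = 0.261, and -0.29, adjusted p = 0.191). In AMO1 KLF6 was 16.2, 16.7 and 12.3 FPKM with DMSO, 14.1, 12.4 and 13.7 with 100 nM, and 14.6, 15.4 and 15.8 with 1000 nM, where the groups overlap. Its changes of -0.15 (limma adjusted p = 0.716) and 0.03 (adjusted p = 0.949) were -0.28 (adjusted p = 0.236) and -0.10 (adjusted p = 0.649) without AMO1 DMSO replicate 3. Without that library both treated groups lay below DMSO with no overlap. KLF10 encodes a factor induced early by TGF-β. KLF10 was 1.25, 1.97 and 0.666 FPKM in XG1 with DMSO, 2.10, 2.41 and 1.70 with 100 nM, and 2.54, 0.824 and 1.60 with 1000 nM, which overlap. In AMO1 KLF10 was 5.26, 5.57 and 6.03 FPKM with DMSO, 5.58, 3.34 and 5.94 with 100 nM, and 4.33, 5.13 and 3.58 with 1000 nM. The AMO1 libraries with 1000 nM all lie below those with DMSO for KLF10 (change -0.32 ± 0.24, limma adjusted p = 0.427).

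Counted over the 7 tested members, 2 were called in XG1 at 100 nM, both higher, where 6.61% of all 12204 tested genes were called (2.63% higher, 3.98% lower). At 1000 nM 4 were called, 3 higher and 1 lower, against 17.6% of all genes (1.9% higher, 15.7% lower). In AMO1 2 were called at 100 nM, 1 in each direction, against 2.2% of all genes (0.434% higher, 1.76% lower), and 2 at 1000 nM, again 1 in each direction, against 17.1% (1.78% higher, 15.4% lower). Groups did not overlap for 5 and 6 of 7 members in XG1 at the lower and higher dose, where this held for 27.4% and 32.2% of all genes, and for 3 and 3 of 7 in AMO1, where it held for 18.8% and 35.6%. The median change of the members was 0.31 and 0.20 in XG1 and 0.37 and 0.28 in AMO1, beside -0.01, -0.19, -0.09 and -0.18 over all genes. Without AMO1 DMSO replicate 3 the AMO1 medians of the members were 0.06 and 0.01, beside -0.18 and -0.28 over all genes. Median deviation centring brought the all-gene medians to between 0.01 and 0.04 and moved the EGR1 change in XG1 at 1000 nM to 2.13, that of IER3 in AMO1 to 1.80 and that of KLF2 in AMO1 to -1.48, all still called. The comparisons of 100 and 1000 nM with DMSO share the DMSO libraries of a line.

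**Figure D2:**
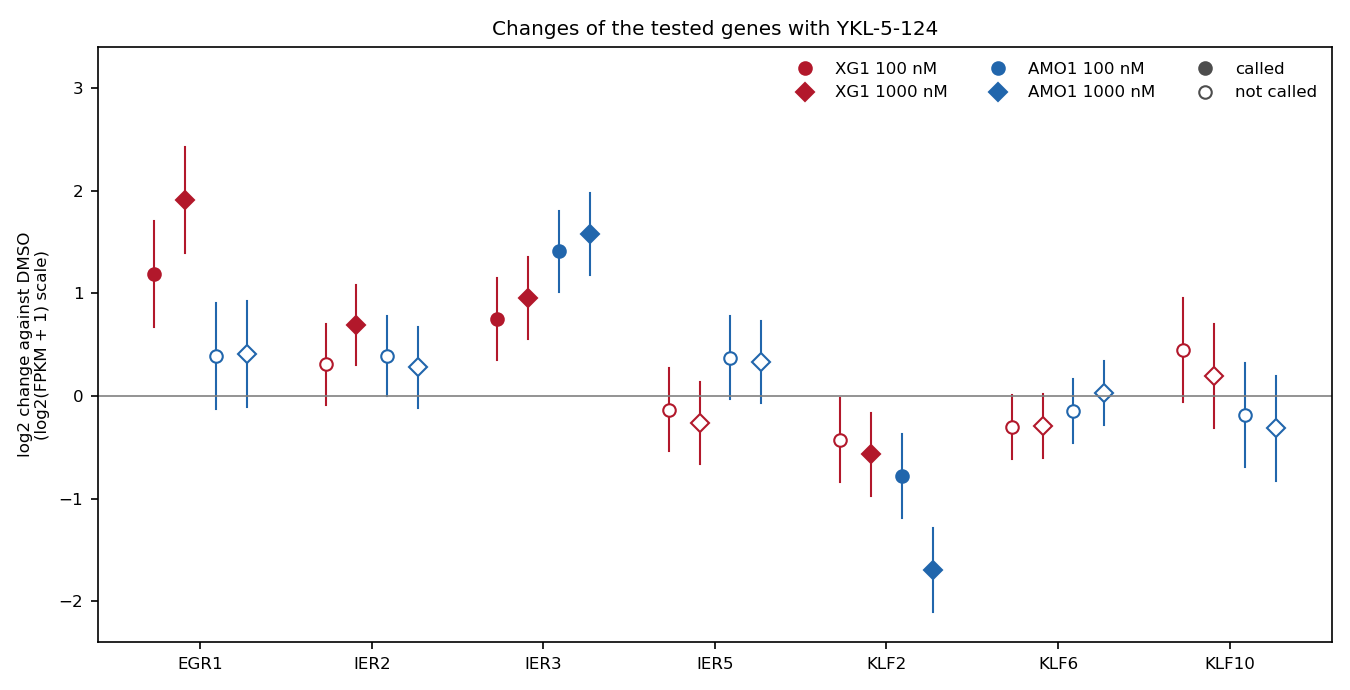
Log2 change of the 7 tested genes against DMSO in each line and dose, with 95% intervals from the limma fit; circles are 100 nM, diamonds 1000 nM, and filled points are called. At 1000 nM EGR1 in the libraries labelled XG1 (1.91) and IER3 in AMO1 (1.58) lie farthest above 0, and KLF2 in AMO1 at 1000 nM, at -1.70, lies farthest below.

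No member was called between 1000 and 100 nM by limma in either line, where 0.139% of all genes were called in XG1 and 0.18% in AMO1. Before adjustment 1 of 7 had a p under 0.05 in each line, EGR1 in XG1 and KLF2 in AMO1, both given above. The share of all genes at that unadjusted p is not given. Groups did not overlap for 1 of 7 members in XG1 (17.5% of all genes) and 2 of 7 in AMO1 (22.2%). With a pseudocount of 5 FPKM in place of 1, KLF2 in AMO1 was called (-0.80, adjusted p = 0.0204).

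The lines differed with DMSO for 6 of the 7 members, where 62.7% of all genes were called (28.3% higher in XG1, 34.4% lower), so such a difference is common among all genes. EGR1 was 6.25-fold higher in XG1 than in AMO1 (2.32 ± 0.25, limma adjusted p = 7.92e-08). KLF2 was lower in XG1, at 4.18 ± 0.348 against 64.3 ± 16.96 FPKM (SD, n = 3; -3.63 ± 0.20, limma adjusted p = 2.04e-12). KLF10 (-1.56, adjusted p = 1.22e-05), IER5 (-1.23, adjusted p = 1.31e-05), KLF6 (-0.58, adjusted p = 0.00196) and IER2 (-0.58, adjusted p = 0.0108) were lower in XG1 as well. Without AMO1 DMSO replicate 3 these differences were 2.08 (EGR1), -3.42 (KLF2), -1.52 (KLF10), -1.55 (IER5), -0.71 (KLF6) and -0.85 (IER2), all still called. The IER2 call was lost when only the compared libraries were fitted (adjusted p = 0.0513) and without AMO1 DMSO replicate 1 (0.0643) or 2 (0.0693). IER3 did not pass (0.36, limma adjusted p = 0.103), and was called after median deviation centring (0.46, adjusted p = 0.0312) and without AMO1 DMSO replicate 2 (0.50, adjusted p = 0.0438), whereas without AMO1 DMSO replicate 3 it was 0.14 (adjusted p = 0.494). Whether the difference belongs to the lines or to the marker profile of the libraries labelled XG1 cannot be told apart.

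By level over the 6 groups, EGR1 was highest in XG1 with 1000 nM, then 100 nM, then DMSO, with no overlap between these or with AMO1, whose 3 groups overlap each other. KLF2 ran in the opposite order of lines, from AMO1 with DMSO through 100 nM and 1000 nM to XG1 with DMSO and 100 nM, with no overlap between neighbours until XG1 with 100 and 1000 nM, which overlap. IER3 was highest in AMO1 with 1000 nM, and the 4 treated groups overlap with their neighbours in that order. For IER5, KLF6 and KLF10 all AMO1 groups lie above all XG1 groups without overlap. IER2 groups overlap with their neighbours except XG1 with DMSO, the lowest.

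The difference between the lines in the EGR1 response to 1000 nM, XG1 minus AMO1, was 1.499 ± 0.351 (95% interval 0.77 to 2.23) and missed the threshold (limma adjusted p = 0.0519). The KLF2 difference, between a change of -0.57 in XG1 and -1.70 in AMO1, was 1.13 ± 0.28 (0.55 to 1.71; adjusted p = 0.0660). At 100 nM 0 members were called in the difference of responses, where 0.156% of all genes were called. At 1000 nM 0 were called as well, where 0.68% of all genes were. The limma p was under 0.05 before adjustment for 2 of 7 members at 100 nM and 4 of 7 at 1000 nM. The share of all genes at that unadjusted p is not given, so these counts cannot be set beside it. EGR1 was called under 6 of 20 alternatives, among them a pseudocount of 5 FPKM (adjusted p = 0.000595), median deviation centring (0.00762), spike-in scaling (0.048), and leaving out AMO1 DMSO replicate 3 (0.0156) or AMO1 1000 nM replicate 3 (0.0311). KLF2 was called with a pseudocount of 5 FPKM (0.00242) and without XG1 1000 nM replicate 2 (0.0477). A pseudocount of 5 FPKM shrinks changes of low genes further, such as KLF2 in XG1 and EGR1 in AMO1. With it the KLF2 change in XG1 was -0.28 and the KLF2 difference 1.23. Without AMO1 DMSO replicate 3 the KLF2 difference was 0.92 (adjusted p = 0.0885). IER3 (-0.62, adjusted p = 0.407) and IER5 (-0.59, adjusted p = 0.459) had differences of the opposite sign, and their intervals, -1.18 to -0.06 and -1.16 to -0.02, do not reach 0, but neither passed the adjustment. Without AMO1 DMSO replicate 3 these differences were -0.40 (adjusted p = 0.493) and -0.27 (adjusted p = 0.528).

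**Figure D3:**
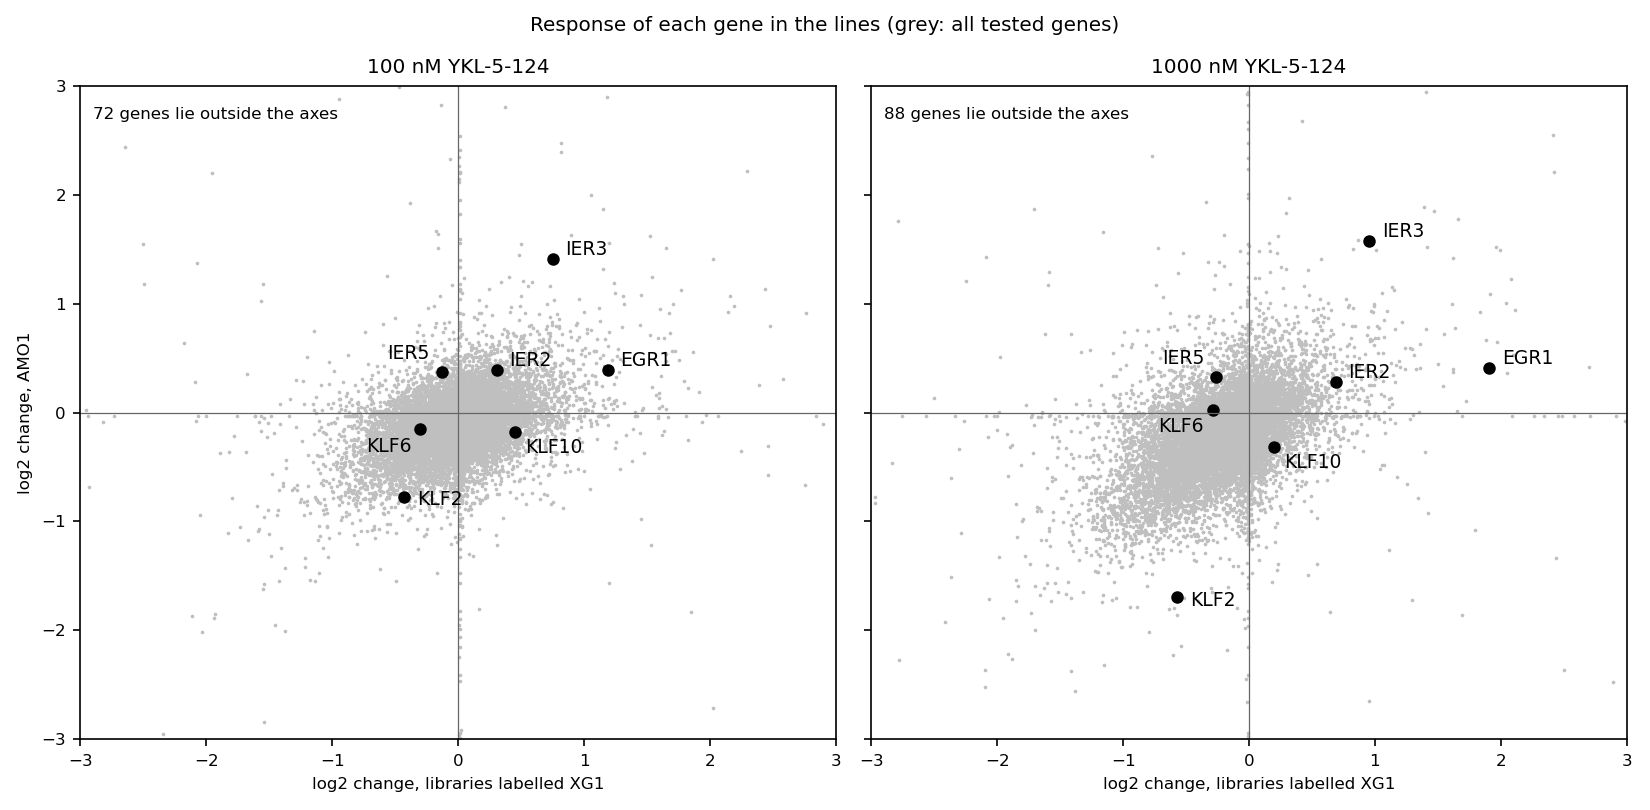
Log2 change against DMSO in the libraries labelled XG1 (x axis) and in AMO1 (y axis) at each dose, with the 7 tested genes in black over all tested genes in grey; 72 genes at 100 nM and 88 at 1000 nM lie outside the axes of ±3. At 1000 nM EGR1 lies far to the right, at 1.91 in XG1 and 0.41 in AMO1, IER3 lies at the upper right, at 0.95 and 1.58, and KLF2 lies at the lower left, at -0.57 and -1.70.

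Beside the members, 48 other immediate and delayed early genes were listed with earlier results of these data known, of which 39 were tested. In XG1 3 were higher and 3 lower at 100 nM, and 3 were higher and 10 lower at 1000 nM. Over all genes the shares called higher and lower were 2.63% and 3.98%, and 1.9% and 15.7%. The antiproliferative gene BTG2 (1.24 and 1.07) and the AP-1 gene JUNB (0.90 and 0.97) were higher at both doses, and ZFP36L2, which encodes an mRNA decay factor, was lower (-1.28 and -1.81). MYC (-1.84) and HES1 (-1.29), a Notch target, fell at 1000 nM. These calls of BTG2, JUNB, ZFP36L2, MYC and HES1 held under all 14 alternatives. MYC (-1.06) and HES1 (-0.89) at 100 nM, MAFF (0.75) at 100 nM and CCNL1 (0.68) at 1000 nM were called but lost the call in 7, 2, 7 and 2 of 14 alternatives, with adjusted p of up to 0.147, 0.0729, 0.165 and 0.0631. In AMO1 2 were higher and 0 lower at 100 nM (IER5L 0.86 and JUNB 0.70, lost in 6 and 8 of 14 alternatives), and 10 were higher and 5 lower at 1000 nM, where the shares over all genes were 0.434% and 1.76%, and 1.78% and 15.4%. There GADD45A (1.17), a DNA damage gene, and IER5L (1.06), a relative of IER5, were higher, and MYC (-1.59) and ID1 (-0.88) were lower, calls that held under all 14. FOS, the partner of JUN in AP-1, was 3.35 ± 0.780 against 0.934 ± 0.258 FPKM (SD, n = 3; 1.16, limma adjusted p = 0.0328), and lost the call in 6 of 14. TRIB1 (-0.78) lost it in 11 of 14. The list's median was 0.00, 0.02, -0.03 and -0.04 in the order XG1 100 nM, XG1 1000 nM, AMO1 100 nM and AMO1 1000 nM, beside -0.01, -0.19, -0.09 and -0.18 over all genes. In the difference of responses at 1000 nM 4 of the 39 were lower and 0 higher, where 0.68% of all genes were called. IER5L (-1.74, limma adjusted p = 0.0014) was called under all 20 alternatives, and GADD45A (-1.91) and ATF3 (-1.73) lost the call in 5 and 9 of 20. The remaining gene was ZFP36L2.

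Of 17 ERK feedback genes, 12 were tested, and none was higher in any comparison with DMSO. The shares of all genes called, given for the list before, apply to this list and to those that follow. They do not apply to the counts at an unadjusted p under 0.05. In XG1 0 were lower at 100 nM, with 0 at an unadjusted p under 0.05, and 1 was lower at 1000 nM (DUSP7, -0.75, lost in 3 of 14). In AMO1 1 was lower at 100 nM (SPRY1, -0.91, lost in 5 of 14) and 2 were lower at 1000 nM (SPRY1, -1.09, held under all 14, and DUSP7, -0.70, lost in 6 of 14). SPRY1 and DUSP7 encode negative regulators of ERK signalling. Of 29 genes of the ERK cascade and the SRF, NAB and MEF2 regulators, 28 were tested: limma called 0 in XG1 at 100 nM, 0 at 1000 nM and 0 in AMO1 at 100 nM, with 4, 6 and 1 at an unadjusted p under 0.05. At 1000 nM in AMO1 3 were lower: the RAF kinase ARAF (-0.92, held under all 14), MEF2C (-0.67, lost without AMO1 DMSO replicate 2, adjusted p = 0.0609) and BRAF (-0.63, lost in 11 of 14). With DMSO the lines differed in 17 of these 28 genes, 6 higher and 11 lower in XG1, where 62.7% of all genes were called.

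Of 17 other KLF and SP family genes, 12 were tested. KLF1, the erythroid factor, fell in XG1 from 56.8 ± 2.43 FPKM with DMSO to 18.7 ± 3.41 and 14.4 ± 2.42 (SD, n = 3; -1.56, limma adjusted p = 0.000123, and -1.92, adjusted p = 6.09e-06), and it is one of the markers by which these libraries go against their label. In XG1 it was the only one lower at 100 nM, and at 1000 nM KLF3 (-0.69, lost in 2 of 14) and KLF13 (-0.65, lost in 12 of 14) were lower too. In AMO1 0 were called at 100 nM by limma, with 4 at an unadjusted p under 0.05, and 1 at 1000 nM, KLF3 (-0.84, held under all 14). Of 13 genes listed as linked to EGR, IER or KLF members, 11 were tested. This list held PPP2R2A, HSF1 and IER3IP1, so a call in it is not always that of a KLF or EGR linked gene. In XG1 limma called 0 at 100 nM, with 1 at an unadjusted p under 0.05, and 2 lower at 1000 nM, the KLF2 target S1PR1 (-0.94, lost in 3 of 14) and PPP2R2A (-0.80, lost in 2 of 14). In AMO1 0 were called at 100 nM, with 1 at an unadjusted p under 0.05, and 1 lower at 1000 nM, PPP2R2A (-0.88, lost in 2 of 14).

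**Figure D4:**
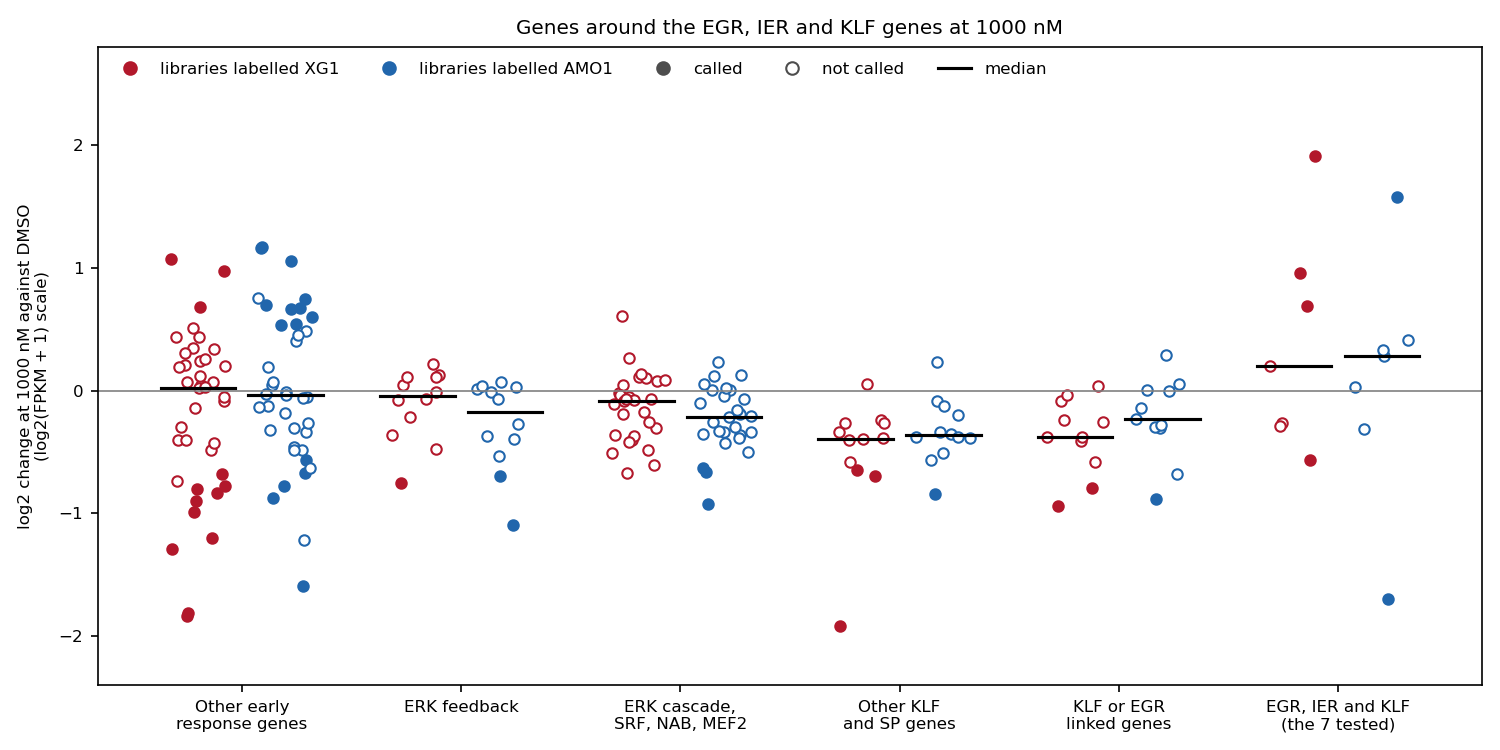
Log2 change at 1000 nM against DMSO of every tested gene in the 5 lists and of the 7 tested members, in each line; filled points are called, open points are not, and bars are medians. The list of other early response genes spreads in both directions, from -1.84 to 1.07 in XG1 and from -1.59 to 1.17 in AMO1. The list marked as KLF or EGR linked is that of genes listed as linked to EGR, IER or KLF members.

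Across the 18 libraries, after each line's mean was subtracted, the 2 genes with the pattern most like each member were read out over 11215 genes. They were FBXO10 (Pearson r = 0.872) and SDCBP2 (0.871) for EGR1, RPS6KB2 (0.929) and CDC37 (0.893) for IER2, POLR2A (0.939) and ATG2A (0.937) for IER3, SLC43A1 (0.922) and TMEM147 (0.890) for IER5, DDN (0.899) and BCL7B (0.899) for KLF2, FAM83H (0.866) and WWP2 (0.855) for KLF6, and CC2D1B (0.877) and PEX5 (0.8665) for KLF10. POLR2A, the gene of the largest subunit of RNA polymerase II, was itself higher in all 4 comparisons with DMSO (0.90 and 0.86 in XG1, 1.63 and 1.59 in AMO1; limma adjusted p 0.00392, 0.00228, 2.41e-05 and 8.58e-06); its call in AMO1 at 100 nM was lost with only the libraries compared (adjusted p = 0.0752). Among the members, r was 0.79 for EGR1 with IER2, 0.74 for IER2 with IER3, 0.63 for EGR1 with IER3 and -0.81 for IER3 with KLF2. These values are descriptions over libraries that share lines, doses and scaling, so no p is given. They were not computed without AMO1 DMSO replicate 3, which stands apart from the other AMO1 libraries for IER2 and IER5.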

How the data were processed

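RNA was measured in 18 libraries by QuantSeq 3′ sequencing, per the labels' protocols, after TRIzol lysis and column extraction. The authors' deposited values are FPKM; HISAT2, Cuffnorm and hg19 are named in the submitters' processing notes, with no versions, and the unit is taken from Cuffnorm, since the files give only a column of expression values. FPKM divides by transcript length although 3′ libraries give about 1 tag per transcript, so levels of different members are not compared. The marker sums and the cut-offs of 1 and 10 FPKM do take different genes together and carry this limit. The values of a library summed to 741443 to 957143 FPKM in the libraries labelled XG1 and to 1.46e+06 to 2.07e+06 FPKM in AMO1. The libraries therefore do not share a total, and how the values were scaled was not tested. The 92 spike-in rows were left out of the fit. Values of 0 do not occur, and only 3.59 to 4.44% of low values per library were within 0.02 of a whole multiple of the library floor, so reads could not be recovered and depth is unknown. No 2 libraries were identical.

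From these values, log2(FPKM + 1) of 12204 of 26249 genes, those whose mean reached 1 FPKM in any group, was fitted with limma 3.58.1 (trend and robust, R 4.3.3), with 1 mean for each of 6 groups over all 18 libraries, in 9 two-sided comparisons with Benjamini-Hochberg adjustment over all genes tested and a threshold of 0.05. The script was tested on simulated data. All 10 members are named, with up to 3 called genes per direction of each list, the 2 genes most like each member, CDK7 and POLR2A. The members and lists were chosen with earlier results of these data known. Alternatives were pseudocounts of 0.1 and 5 FPKM, no filter, 2 centrings (that on median deviation was added after seeing the data), spike-in scaling from 44 spike-ins, only the libraries compared, a replicate block, and each library left out. The median deviation of the spike-ins was only -0.078 to 0.072 log2 across the libraries, so spike-in scaling moved the values little.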

Additional observations from a re-analysis of the deposited data

How the results depend on the processing

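The count of members called in XG1 at 100 nM was 1 without the filter, against 2, and 1 to 2 with a library left out. In XG1 at 1000 nM, against 4, it was 4 with a pseudocount of 0.1 FPKM, 3 under each of the other alternatives that leave out no single replicate, and 2 to 3 with a library left out. In AMO1 at 100 nM, against 2, it was 1 with a pseudocount of 0.1 FPKM, no filter, median centring, median deviation centring or the replicate block, 0 with only the libraries compared, and 1 with any library left out. In AMO1 at 1000 nM, against 2, it was 4 under both centrings and 2 with any library left out. Between 1000 and 100 nM in AMO1 it was 1 with a pseudocount of 5 FPKM, against 0. Between the lines in DMSO it was 5 to 6 with a library left out, against 6. For the difference of line responses at 1000 nM, against 0, it was 2 with a pseudocount of 5 FPKM, 1 with median centring, median deviation centring or spike-in scaling, and 0 to 1 with a library left out. With a library left out the counts for 1000 against 100 nM in either line and for the difference at 100 nM stayed at 0.

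Changes of single genes that turned sign were all uncalled. Median centring and median deviation centring gave 0.12 and 0.0688 for IER5 and 0.11 and 0.0567 for KLF2 between 1000 and 100 nM in XG1, and 0.0718 and 0.0616 for IER5 between these doses in AMO1. Median centring gave 0.0283 for KLF6 in AMO1 at 100 nM and 0.00657 for IER2 in AMO1 between doses, and spike-in scaling gave -0.00554 for KLF6 in XG1 between doses. With a library left out, the change ranged from -0.037 to 0.440 for KLF10 in XG1 at 1000 nM, -0.307 to 0.031 for KLF10 in AMO1 at 100 nM, -0.103 to 0.102 for KLF6 in AMO1 at 1000 nM, -0.0413 to 0.0516 for KLF6 in XG1 between doses, -0.289 to 0.215 for EGR1 and -0.0985 to 0.00367 for IER5 in AMO1 between doses, and -0.242 to 0.189 for IER2 in the difference at 100 nM. Over the members' changes, alternatives that leave out no single replicate kept call and direction in 468 of 504, lost a call in 16, gained one in 11 and turned the sign in 9; with a library left out these were 428 of 462, 19, 4 and 11. The cause of these shifts was not tested.

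The replicate numbers gave no sign of pairing. The correlation of deviations of same-numbered libraries was -0.05 to 0.03 over 9 pairs in XG1 and -0.12 to 0.09 over 9 in AMO1. It was -0.21 to -0.05 over 3 pairs between lines, with 0 of all these over 0.1. Such values cannot show that same-numbered libraries did not share a culture or day, which the labels do not say. With the replicate block, KLF2 lost its call in XG1 at 1000 nM (adjusted p = 0.0871) and in AMO1 at 100 nM (adjusted p = 0.101). Depth is unknown, which limits what can be said of EGR2, EGR3 and KLF4 near the floors.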
